A study of Mus musculus with 12 samples.

Results

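The miRNAs described here belong to the imprinted miR-379/miR-410 cluster of mouse chromosome 12, apart from 2 neighbours. The miR-376 family and miR-134, miR-329, miR-381 and miR-485 are not among them. All were chosen by miRNA number from a list of 32 numbers, with earlier results of these data known. No cut on measured levels was added here, but every row of the miRNA table has a Control mean of at least 10 counts. Of the 32 numbers, 28 have a row in the miRNA table. Both arms of a hairpin could be listed, so 46 of the 495 named rows are members. miR-453, miR-654, miR-758 and miR-882 have no row among those analysed here.

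The libraries hold small RNA of CA1, a hippocampal field dissected from C57BL/6J mice at 3 to 5 months of age. The 6 Control libraries came from Kat2afl/fl mice, and the 6 Kat2a cKO libraries, which the labels call naïve, came from Kat2afl/fl mice that also carry CamKIIα-cre. Both groups therefore share the floxed alleles. CamKIIα drives Cre in forebrain excitatory neurons, so glia, vessels and inhibitory neurons of CA1 are not its intended targets. In which cells the deletion took place could not be checked here. Kat2a encodes a histone acetyltransferase, and the comparison asks how miRNA levels differ when excitatory neurons lose it. The labels do not say whether each library came from its own animal, so p-values measure the spread between libraries, which may be technical. In whole tissue, fewer cells of a type and less RNA per cell cannot be told apart.

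In placental mammals the cluster is transcribed from the maternal chromosome only, as part of long noncoding transcripts that include Meg3, Rian and Mirg, and is known for high activity in brain. Each hairpin is cut into a duplex, and the arm loaded into Argonaute finds its targets mostly through the seed, the bases just behind its 5′ end. Mice that lack the cluster are known to show altered anxiety and social behaviour and disturbed energy metabolism after birth. In the RefSeq gene order, Mir341 and Mir370 lie within Rian, ahead of Mir379, so 2 members are neighbours of the cluster and 44 rows belong to genes from Mir379 to Mir410. All 28 genes with a row are on chromosome 12.

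Mature sequences were found in RefSeq (GRCm38.p6) for 42 of the 46 rows, 16 under the same name and 26 under the older name for that arm. The sequences are 21 to 25 nt long, so CPM (counts per 1000000, scaled by TMM) were compared between members without a length correction. Those below are the members whose levels are described one by one, written 5′ to 3′ with the seed (bases 2 to 8) in capitals. miR-487b and miR-539-3p are named only.
miR-411: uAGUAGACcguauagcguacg
miR-410: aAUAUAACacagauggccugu
miR-541: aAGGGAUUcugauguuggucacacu
miR-300: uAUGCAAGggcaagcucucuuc
miR-409-3p: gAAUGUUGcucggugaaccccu
miR-369-5p: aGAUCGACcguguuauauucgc
miR-341: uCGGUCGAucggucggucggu
miR-379: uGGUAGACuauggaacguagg
miR-494: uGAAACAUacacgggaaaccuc
miR-410*: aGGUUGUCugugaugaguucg
miR-495*: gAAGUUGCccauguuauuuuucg

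Despite their shared transcript, the members carry almost as many seeds as sequences. Only miR-379* and miR-411*, the 3′ arms of neighbouring hairpins, share a seed among the 42, and they are identical at 20 of 22 positions (90.9%). The next most alike pairs differ in seed: miR-495 and miR-543 match at 18 of 22 positions (81.8%), and miR-369-3p and miR-154* at 17 of 21 (81.0%). Outside the members, the seed of miR-410 also occurs in miR-344d-3p and miR-344e-3p, and that of miR-379 in miR-1193-5p. The 6 sequences below show the shared seed and the likeness of the other pairs, with seeds in capitals as above. How reads that match more than one miRNA were counted is not given in the sources used here, so the values of such near copies are uncertain to that extent.
miR-379*: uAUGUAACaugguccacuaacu
miR-411*: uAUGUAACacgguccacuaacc
miR-495: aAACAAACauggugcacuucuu
miR-543: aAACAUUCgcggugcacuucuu
miR-369-3p: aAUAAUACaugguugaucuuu
miR-154*: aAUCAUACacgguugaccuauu

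Total counts in the miRNA table ran from 2449121 to 10116062 per library. The libraries stood apart by replicate number rather than by group: on the leading principal component of log2 CPM, with 46.6% of the variance, libraries numbered 4 to 6 lay between -6.78 and -4.01 in both groups, Control 3 and cKO 2 at -0.98 and -0.41, and the other 4 between 8.30 and 9.02. The labels give no batch, and what the numbers stand for is not stated. The neuronal list (miR-9, miR-124, miR-128, miR-132 and miR-138) summed to 57839 to 78065 CPM in Control and 61287 to 67660 CPM in cKO. Lists for oligodendrocytes, microglia, vessels, red blood cells and choroid plexus also overlapped between groups in their sums, and no listed row was at 0 in any library. In fitted log2 fold change, 9 of 11 neuronal rows were lower in cKO (median -0.03), as were 4 of 5 oligodendrocyte rows (median -0.24), 3 of 5 microglial (median -0.06), 2 of 6 vascular (median 0.12) and 3 of 7 choroid plexus rows (median 0.13). All 4 red blood cell rows were fitted higher (median 0.30), with sums of 3655 to 17907 CPM in Control and 6029 to 18183 CPM in cKO. The part of any of these lists in the results was not tested. Kat2a had 23 reads in Control and 13 in cKO in the table of all RNAs, with 0 to 8 per library, so small RNA reads could not check the deletion.

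The members were a small, steep set. Together they held 2.99 to 4.02% of miRNA counts in Control (mean 3.57% ± 0.39, SD, n = 6) and 2.88 to 3.66% in cKO (3.401% ± 0.27, SD, n = 6), and these ranges overlap. miR-411, miR-410 and miR-541 alone made up 68.1% ± 2.75 (SD, n = 6) of the members' counts in Control and 69.7% ± 2.47 (SD, n = 6) in cKO. At the other end, 14 members averaged under 10 CPM, 9 had 10 to 100 CPM, 18 had 100 to 1000 CPM and 5 had over 1000 CPM. Members thus differed widely in CPM, and how evenly sequencing counts different sequences was not tested.

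No member passed the threshold (adjusted p under 0.05) between Control and Kat2a cKO. In edgeR's quasi-likelihood test 45 of the 46 rows were tested, since miR-495* fell under the filter on low counts, and 0 were called, against 0.202% of all 494 tested miRNAs. No member had an unadjusted p under 0.05, against 4.25% of all tested miRNAs, and DESeq2 also called 0 members. The fitted values nonetheless leaned to one side: 35 members were fitted lower and 10 higher in cKO (77.8% lower, against 50.8% of all tested miRNAs), a lean that the neuronal and oligodendrocyte rows also had. The members' median log2 fold change was -0.15, against 0.00 over all tested miRNAs, and the values ran from -0.61 to 0.16. The 95% interval of every tested member held 0, with a median SE of 0.20 on the log2 scale. The smallest unadjusted p was 0.080 (miR-379), and the edgeR adjusted p was 0.997 for all members. The members come from the same transcripts and libraries, so their directions are not separate observations.

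**Figure D1:**
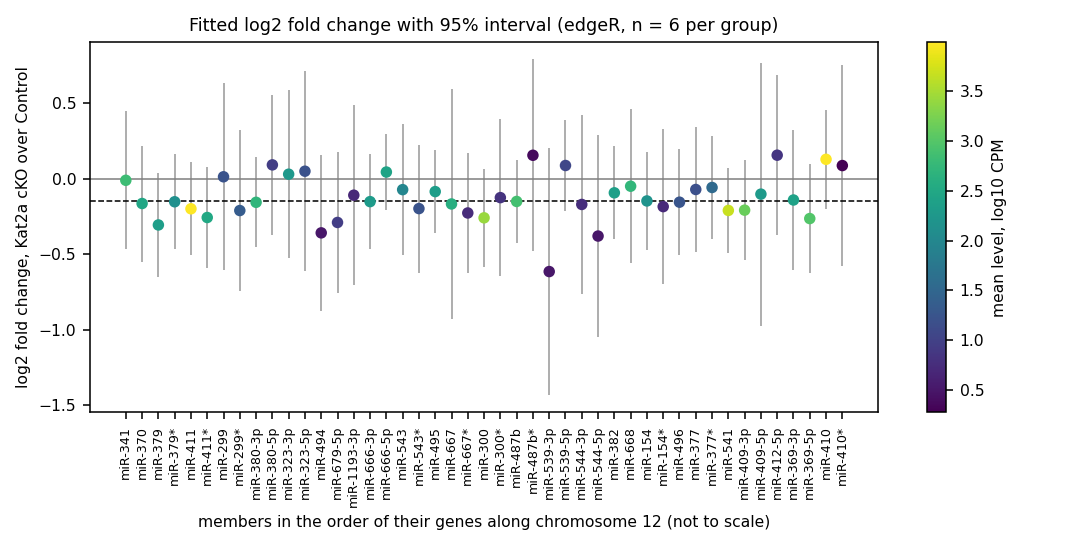
Each point is the fitted log2 fold change of one of the 45 tested members, Kat2a cKO over Control, with its 95% interval (edgeR, n = 6 per group), ordered as the genes lie on the chromosome and coloured by mean level (log10 CPM). The dashed line is the members' median of -0.15, 35 of the points lie under 0, and every interval holds 0.

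miR-411 and miR-410, from genes near opposite ends of the cluster, were the most abundant members, and their levels were within the spread between libraries of each other. miR-411 ranked 19th of the whole miRNA table and had 8171, 10533 and 12762 CPM (lowest, median and highest) in Control and 6925, 9707 and 10474 CPM in cKO. The groups overlap, with 2 of 6 cKO libraries under the lowest Control value and 5 of 6 under the Control mean, at a log2 fold change of -0.20 ± 0.14 (SE, n = 6 per group), or -0.13 without cKO replicate 1.

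miR-410, which is known to regulate insulin secretion in mouse islet cells, had a fitted value of the opposite sign. It had 6915, 9147 and 11073 CPM in Control and 8183, 9810 and 12095 CPM in cKO. No cKO library was under the Control range, 1 was above it, and 5 of 6 were above the Control mean, with a log2 fold change of 0.13 ± 0.15 (SE, n = 6 per group). The value was 0.047 without Control replicate 5, 0.061 without cKO replicate 3, 0.065 without Control replicate 2 and 0.19 without Control replicate 1. With TMM scaling it was the only one of the 8 most abundant members with a positive fitted value.

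miR-541 is taken from the 5′ arm of a hairpin near the distal end of the cluster. Its level was 4326, 4911 and 6302 CPM in Control and 3914, 4275 and 5616 CPM in cKO. The cKO median was lower, and 3 of 6 cKO libraries were under the lowest Control library, but the ranges overlap and the log2 fold change was -0.21 ± 0.13 (SE, n = 6 per group).

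miR-300 had all 6 cKO libraries under the Control mean, as did miR-379 and miR-539-3p. That is 3 of 45 members, against 3.44% of all tested miRNAs, and no member's groups were free of overlap (0.405% of all tested miRNAs). miR-300 had 2232, 2839 and 3333 CPM in Control and 1874, 2453 and 2721 CPM in cKO. Libraries numbered 4 to 6 were higher than those numbered 1 to 3 in each group: Control held 2232 to 2498 CPM in numbers 1 to 3 and 3180 to 3333 CPM in numbers 4 to 6, and cKO held 1874 to 2244 CPM and 2662 to 2721 CPM. Within numbers 1 to 3 the groups overlap narrowly, while within numbers 4 to 6 they do not overlap. The latter also holds for miR-411, miR-369-5p, miR-487b and miR-411*, among others. With n = 3 per group, and with the share over all tested miRNAs not counted, it is no trait of miR-300. The log2 fold change of miR-300 was -0.26 ± 0.15 over all libraries (SE, n = 6 per group), -0.22 ± 0.19 in numbers 1 to 3 and -0.29 ± 0.09 in numbers 4 to 6 (SE, n = 3 per group), where edgeR's adjusted p was 0.998 and 0.251.

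miR-379 comes from the gene that opens the cluster and had the smallest p of the members. It had 174, 243 and 316 CPM in Control and 160, 197 and 238 CPM in cKO. Only 2 of 6 cKO libraries were under the lowest Control library, and the log2 fold change was -0.31 ± 0.16 (SE, n = 6 per group). It was -0.20 ± 0.24 in numbers 1 to 3 and -0.40 ± 0.15 in numbers 4 to 6 (SE, n = 3 per group). miR-411*, the 3′ arm that shares its seed with miR-379*, had 265, 356 and 378 CPM in Control and 211.5, 275 and 370 CPM in cKO. Here 3 of 6 cKO libraries were under the Control range, at a log2 fold change of -0.26 ± 0.16 (SE, n = 6 per group). Its partner in seed, miR-379*, was at -0.15 ± 0.15.

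**Figure D2:**
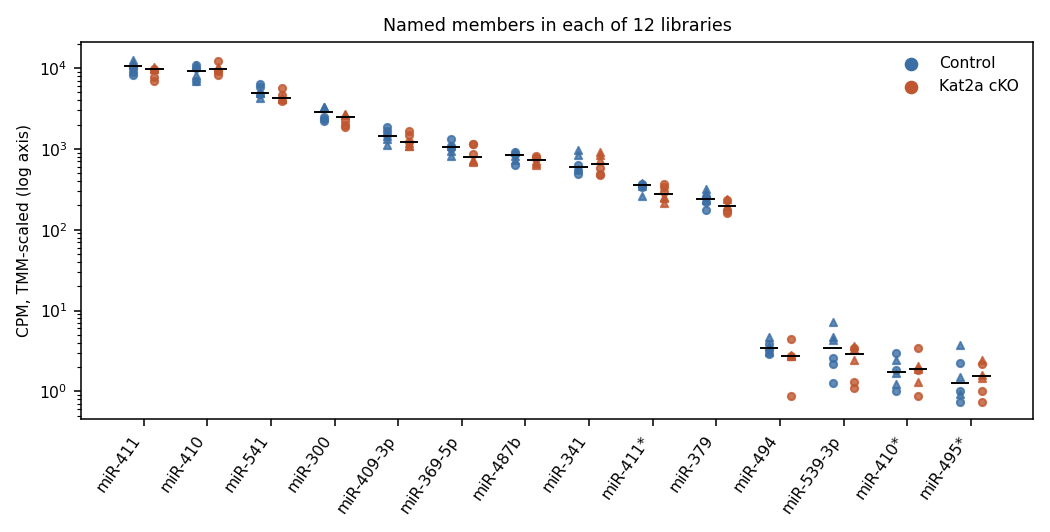
CPM (TMM-scaled, log axis) of the 14 members named by level or by p, in each of the 12 libraries, Control and Kat2a cKO side by side. Circles are libraries numbered 1 to 3, triangles numbers 4 to 6, and black lines the group medians; the groups overlap for every one of these members.

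miR-409-3p had 1115, 1466 and 1882 CPM in Control and 1079, 1206 and 1659 CPM in cKO, with 2 of 6 libraries under the Control range and a log2 fold change of -0.21 ± 0.15 (SE, n = 6 per group), or -0.13 without Control replicate 1. The cKO median was lower and the ranges overlap widely. miR-369-5p had 817, 1063 and 1332 CPM in Control and 684, 794 and 1139 CPM in cKO, with 3 of 6 libraries under the Control range and a log2 fold change of -0.26 ± 0.17 (SE, n = 6 per group). It was -0.15 ± 0.21 in numbers 1 to 3 and -0.42 ± 0.11 in numbers 4 to 6 (SE, n = 3 per group). The other arm of that hairpin, miR-369-3p, is known in human cells for switching to activation of TNF translation in quiescence, and was at -0.14 ± 0.22.

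miR-487b had 630, 838 and 912 CPM in Control and 624.7, 737 and 818 CPM in cKO, and the log2 fold change was -0.15 ± 0.13 (SE, n = 6 per group). For miR-487b, 1 cKO library was under the Control range. miR-341, a neighbour from within Rian, had 489, 597 and 973 CPM in Control and 471, 650 and 916 CPM in cKO, and its log2 fold change of -0.01 ± 0.21 (SE, n = 6 per group) takes the other sign when libraries are scaled by total counts (0.016). miR-370, also from within Rian and known in human liver cells for effects on lipid metabolism, was at -0.16 ± 0.18.

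Among the members with few reads, miR-539-3p had the most negative fitted value, -0.61 ± 0.38 (SE, n = 6 per group), on 5 to 61 counts per library, and was at -0.32 without Control replicate 4, its highest library. It had 1.26, 3.46 and 7.14 CPM in Control and 1.11, 2.92 and 3.68 CPM in cKO, and the cKO range lies almost whole within the Control range. miR-494, studied in mouse heart for protection against ischaemic injury, had 2.93, 3.45 and 4.77 CPM in Control and 0.86, 2.74 and 4.44 CPM in cKO. For miR-494, 5 of 6 cKO libraries were under the lowest Control library while cKO 3 was near the highest, on 2 to 31 counts, and the log2 fold change was -0.36 ± 0.24 (SE, n = 6 per group). The widest interval of all belonged to miR-409-5p, at -0.10 with bounds of -0.97 and 0.77, although it averaged 191 CPM.

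The least abundant rows were miR-410* and miR-495*. miR-410* had 1.01, 1.76 and 2.97 CPM in Control and 0.86, 1.87 and 3.47 CPM in cKO, which covers the Control range. miR-495* had 0.73, 1.26 and 3.70 CPM in Control and 0.74, 1.53 and 2.46 CPM in cKO, inside the Control range. Rows of the miRNA table all have a Control mean of at least 10 counts. Whether rows were kept by their Control level alone is not stated, and the lowest cKO mean was not computed. The part of any such choice in the lower fitted values was not tested. By level, the 23 members over 100 CPM had 20 lower fitted values and a median log2 fold change of -0.15. The 9 members at 10 to 100 CPM had 6 lower (median -0.07), and the 13 under 10 CPM had 9 lower (median -0.17).

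The remaining members lay between these. Other than miR-410 and miR-410*, the 8 members with a positive fitted value under TMM scaling were miR-666-5p at 0.04, miR-323-3p at 0.03, miR-323-5p at 0.05, miR-299 at 0.01, miR-539-5p at 0.09, miR-380-5p at 0.09, miR-412-5p at 0.16 and miR-487b* at 0.16. Members with a mean of over 200 CPM that have not yet been given were miR-380-3p at -0.16, miR-668 at -0.05, miR-667 at -0.17, miR-382 at -0.09 and miR-495, shown in rodent brain to target Bdnf, at -0.08. Of the members not described by library, miR-544-5p (-0.38) and miR-679-5p (-0.29) had the most negative values, both at under 10 CPM. The 30 tested rows from Mir379 up to the start of Mirg had 23 lower (median log2 fold change -0.15), and the 13 from there to Mir410 had 10 lower (median -0.14).

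Other miRNAs of the locus also had mostly negative fitted values. The miR-376 family, which lies among the members, had 5 of 5 tested rows lower (median log2 fold change -0.29). The rows of miR-134, miR-329, miR-381 and miR-485, known for roles at dendrites and synapses, had 6 of 7 lower (median -0.10). On the Meg3 and Rtl1 side 17 of 20 were lower (median -0.13). None of these rows was called, against the 0.202% called over the table, and differences between these lists and the members were not tested.

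Averaged over the 45 tested members, the log2 level separated the groups, by a narrow gap. It ran from 6.16 to 6.25 in Control (mean 6.22, SD 0.03, n = 6) and from 6.04 to 6.15 in cKO (mean 6.09, SD 0.04, n = 6), and the ranges do not overlap. This average is given with no test, since the members were chosen with earlier results of these data known. It also depends on the scaling. The scalings were compared with another constant added before the log2 than in the values above. With that constant, TMM gave 6.18 to 6.27 in Control and 6.06 to 6.17 in cKO, with no overlap and a difference of -0.12. With the total of the miRNA table in place of TMM the groups overlap. There 2 of 6 cKO libraries were under the Control range, at a difference of -0.09. Where reads of misc RNA were added to that total, 1 of 6 is under it and the difference is -0.16. Read counts of the most abundant members dominate the share of all counts but not this average, in which each member weighs the same.

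**Figure D3:**
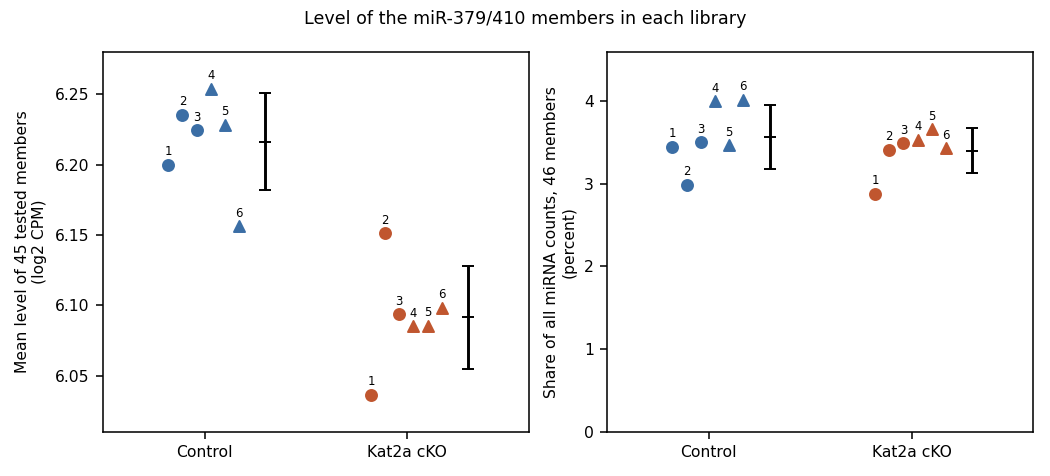
Left, mean log2 CPM (TMM-scaled) over the 45 tested members in each library; right, share of all miRNA counts held by the 46 members (percent, from 0). Points carry the replicate number, circles are numbers 1 to 3 and triangles numbers 4 to 6, and bars give mean and SD (n = 6): the left panel shows no overlap (6.04 to 6.15 in cKO, 6.16 to 6.25 in Control), the right panel does.

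Individual members differed between the sets of replicate numbers, although numbers 1 to 3 were not a uniform set. Between libraries numbered 4 to 6 and 1 to 3, 22 members were higher and 24 lower in mean level, 39 of 46 in the same direction in both groups. On the log2 scale 15 members differed by over 0.5, which 1 fitted genotype difference did. The same counts were not made over all tested miRNAs, so they show no trait of the members. miR-667 averaged 597 CPM in Control and 503 CPM in cKO in numbers 1 to 3, and 264 CPM in both groups in numbers 4 to 6, a log2 difference of -0.97. miR-323-3p (-0.72), miR-668 (-0.62) and miR-543 (-0.59) were also lower in numbers 4 to 6. Here too Control 3 and cKO 2 stood apart for miR-323-3p, at 156 and 163 CPM. The others numbered 1 to 3 had 217 to 313 CPM of it. miR-299 (0.73), miR-341 (0.59), miR-300 (0.44) and miR-411 (0.35) were higher there. Across the 42 members with a sequence, the difference had a Spearman correlation of -0.39 with GC content, a description over members that share libraries. The members did not move as a block: over the 12 libraries, with group means removed, the median Pearson correlation of 990 pairs of members was -0.01, and single pairs ran from -0.96 to 0.97. The difference by replicate number was left in, so these correlations cannot show whether members vary together apart from it.

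Arm choice, the ratio of the counts of the arms of one hairpin, needs no scaling between libraries. It could be followed in 17 member hairpins, and none passed the threshold between the groups: limma called 0 of the 17, against 0.0% of all 149 hairpins, and no member had an unadjusted p under 0.05 (0.671% of all hairpins did). The smallest member p was 0.22 (adjusted 0.984, limma), for miR-380.

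In several hairpins nearly all reads came from one arm in every library. miR-410 was 99.96 to 99.99% of the reads of its hairpin, miR-300 was 99.65 to 99.84% and miR-487b 99.42 to 99.91%. miR-667, miR-380-3p, miR-411 and miR-154 each held over 95% in every library. miR-323-3p held 89.6 to 93.6% and miR-543 83.0 to 86.5%. The major arm varied more widely in 5 hairpins: miR-409-3p held 73.0 to 94.9%, miR-369-5p 70.0 to 90.5%, miR-377* 59.4 to 80.8%, miR-539-5p 58.5 to 92.1% and miR-544-3p 46.2 to 77.3%.

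The other 3 hairpins were shared between arms. miR-379 held 53.1, 64.8 and 72.7% of its hairpin's reads in Control (lowest, median and highest) and 50.9, 62.5 and 71.6% in cKO. miR-666-5p held 48.9, 56.0 and 64.6% in Control and 56.4, 58.0 and 65.3% in cKO. miR-299* and miR-299 traded places as the major arm: the starred arm held 37.0, 54.3 and 75.2% in Control and 37.6, 61.0 and 68.4% in cKO, and was the major one in 7 of 12 libraries. For each of these hairpins the ranges of the groups overlap widely.

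Several hairpins with wide ranges differed by replicate number. The log2 ratio of miR-299* to miR-299 ran from 0.50 to 1.58 in numbers 1 to 3 and from -0.77 to 0.47 in numbers 4 to 6, with no overlap. The log2 ratio of miR-666-5p to miR-666-3p ran from 0.52 to 0.91 and from -0.06 to 0.40. These are 2 of 17 member hairpins (11.8%) whose number sets do not overlap, near the 12.1% (18 of 149) of all hairpins. miR-539-5p over miR-539-3p (-1.24), miR-369-5p over miR-369-3p (-0.92) and miR-377* over miR-377 (-0.72) were lower in numbers 4 to 6, and miR-411 over miR-411* (0.64) and miR-379 over miR-379* (0.57) higher, each in the same direction in both groups. What sets the libraries apart was not tested.

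**Figure D4:**
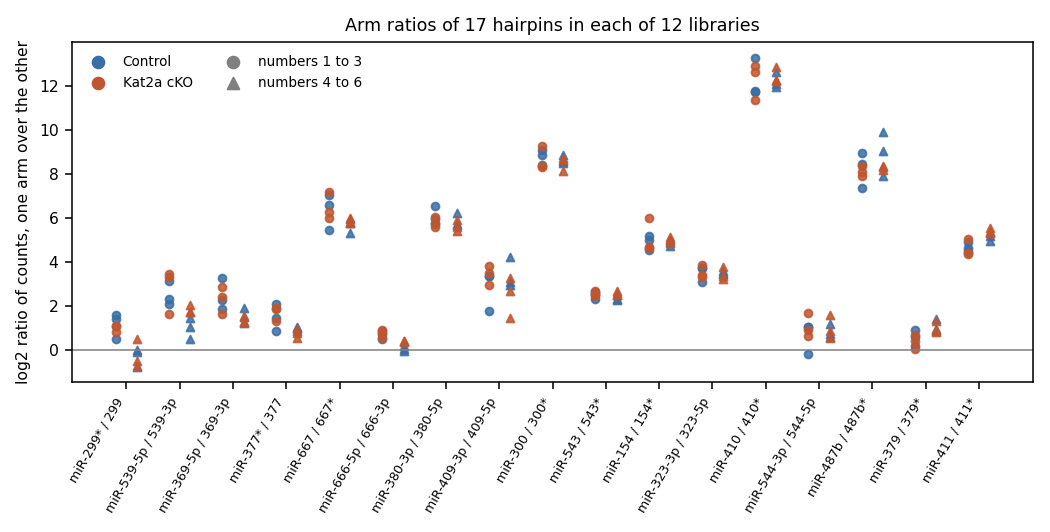
log2 ratio of the counts of the arms of 17 member hairpins in each of 12 libraries, ordered by the difference between replicate numbers 4 to 6 (triangles, right) and 1 to 3 (circles, left), in blue for Control and orange for Kat2a cKO. The colours mix in every hairpin, while for miR-299 (-0.77 to 0.47 against 0.50 to 1.58) the number sets are apart.

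The table of all RNAs counts the same libraries by RefSeq transcript and is a repeat count, not independent support. It holds a row for the genes of 31 of the 32 numbers. Of the 26 rows tested there, 22 were fitted lower and 4 higher in cKO, at a median of -0.15 on the log2 scale, against -0.02 over all 1846 tested rows (52.4% lower). edgeR called 0 of these rows, against 0.0% of all rows, and 1 of the 26 member rows had an unadjusted p under 0.05, against 4.39% (81 of 1846) of all rows; DESeq2 called 10 of the 1846 rows, with 0 of the member rows among them. The row with the unadjusted p under 0.05 was Mir379 at -0.43 ± 0.18 (SE, n = 6 per group), not called after adjustment. Mir410 was at 0.54 ± 0.39. Of the other transcripts of the locus, Rtl1 was at -0.85 ± 0.66, Mirg at -0.37 ± 0.46, Rian at 0.04 ± 0.35 and the 2 tested rows of Meg3 at 0.11 ± 0.35 and 0.15 ± 0.35. Each had an unadjusted p over 0.05 in edgeR, while Dlk1 and Dio3 were under the filter. These rows count small RNA reads placed on a transcript and are not levels of the long RNA. The Rtl1 row averaged 134828 CPM in Control and 74721 CPM in cKO, with 19881 to 582438 reads per library. Rian averaged 16.9 and 17.5 CPM. Which small RNAs gave the reads on Rtl1 was not tested.

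For several genes the CPM differed between the tables by more than between the groups. CPM were scaled within each table. Totals per library were 1119938 to 4464600 in the table of all RNAs and 2449121 to 10116062 in the miRNA table. A ratio of CPM between the tables is therefore not a ratio of reads. Over 27 genes counted in both, the CPM of the gene row and of the summed arms had a Spearman correlation of 0.73, a description over genes in shared libraries. In CPM, the gene row was over 4-fold lower for 10 genes and over 4-fold higher for 3. Mir410 had 811 CPM in the gene row and 9464 CPM in the summed arms, and Mir495 had 10.6 and 216 CPM. Mir496a went the other way, with 356 CPM in the gene row and 18.1 CPM in the arms, as did Mir377 (336 and 50.7 CPM) and Mir412 (91.7 and 7.06 CPM). Mir541 (9038 and 4818 CPM) and Mir411 (6499 and 10048 CPM) lay closer together. How overlapping transcripts were counted is not given in the sources used here. The parts of that counting and of the scaling in these gaps were not tested.

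**Figure D5:**
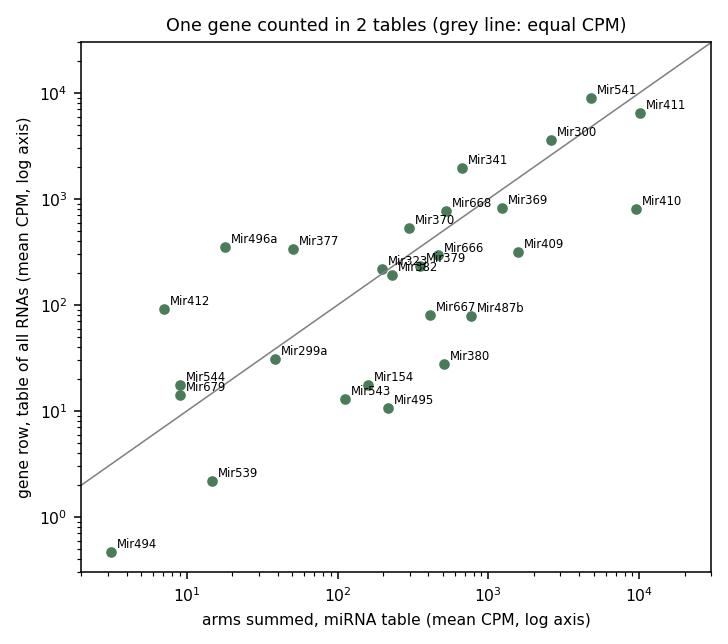
Mean CPM over 12 libraries of 27 member genes (log axes), as the summed arms in the miRNA table (horizontal) and as the gene row in the table of all RNAs (vertical), with a grey line of equal CPM. CPM were scaled within each table, so the line is not one of equal reads. Mir410 (9464 against 811 CPM) and Mir495 lie far under the line, and Mir496a, Mir377 and Mir412 far above it.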

How the data were processed

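Small RNA libraries of 6 Control and 6 Kat2a cKO CA1 samples were analysed. Per the labels' protocols, RNA was extracted with TRI Reagent and DNase-treated, followed by Illumina small RNA library kits. CASAVA is named in the submitters' processing notes. The aligner, annotation and genome build are not given in the sources used here, so no coordinates are printed. The authors deposited raw read counts, per the file headers and their whole numbers. An unnamed row, 0.00015% of the reads, was not used. Columns of the table of all RNAs were assigned by group only.

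Counts were analysed with edgeR 4.0.16 in R 4.3.3: filterByExpr, TMM, a quasi-likelihood fit on group with all 12 libraries, two-sided tests, and Benjamini-Hochberg adjustment over all tested rows at 0.05. Arm ratios, log2 with 0.5 added to each count, were tested with limma 3.58.1. DESeq2 1.42.0, other scalings and filters, the replicate block, numbers 1 to 3 and 4 to 6 alone, and leaving out each library were alternatives. Scripts were tested on simulated data. PCR reads carry no molecular identifiers, and within groups the counts of every pair of libraries differed beyond sampling noise (smallest chi-square per degree of freedom 133).

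Arms named without 5p or 3p were matched to RefSeq by older naming. Values by library were given for the 8 most abundant members, the 8 with the smallest p, the 2 least abundant and any called. Members and lists were chosen with earlier results of these data known.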

Additional observations from a re-analysis of the deposited data

Results flagged for a closer look

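In the cKO group, 1 library, cKO 1, lay far from the other 5 in 3 measures. Its share of miRNA counts held by the members was the lowest, 2.88% against 3.42% in the next library, a gap of 0.69 of the group's range. Its log2 ratio of miR-154 to miR-154* was the highest, 6.00 against 5.12 (gap 0.63 of the range). Its log2 ratio of miR-667 to miR-667* was also the highest, 7.19 against 6.24 (gap 0.656 of the range). In cKO 1 these ratios rest on only 3 counts of miR-154* and 10 counts of miR-667*. cKO 1 is also the library with the fewest miRNA counts, 2449121. Of 66 groups of 6 values checked, 3 were marked in this way, and chance marks about 1 in 20.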

How the results depend on the processing

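Members called stayed at 0 under all 22 alternatives run on the miRNA table. The 1 miRNA called there, not a member, was lost (0 called) when scaled by the miRNA total or by that total with misc RNA, under the replicate block, in numbers 1 to 3 or 4 to 6 alone, and without any 1 library; DESeq2 called 2. The members' median log2 fold change of -0.15 was -0.19 with misc RNA in the total, -0.10 in numbers 1 to 3 alone, -0.19 in numbers 4 to 6 alone, and -0.16 to -0.12 leaving out 1 library. Its distance from the median of all miRNAs, -0.15, was -0.08 without cKO replicate 1. In the table of all RNAs, 0 rows called became 10 with DESeq2, and hairpins called by arm ratio went from 0 to 1 without Control replicate 5 (0 to 1 over the libraries). No member was among the miRNAs, hairpins or rows that gained or lost a call, and the cause was not tested.

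Correlations of same-numbered libraries' deviations were 0.41, -0.15, 0.13, 0.67, 0.24 and 0.27, and in 1 of 6 numbers the best-correlated library had the same number. As 1 correlation was negative and the labels do not tie numbers to animals or days, the numbers were not taken to pair libraries, although numbers 1 to 3 and 4 to 6 differed in both groups. With the replicate block 36 members were lower, the median was -0.14, and 0 miRNAs were called.

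Values near 0 turned sign. miR-341 was at 0.016 with the miRNA total, 0.045 in numbers 4 to 6 alone and -0.14 to 0.098 leaving out 1 library, and miR-410* at -0.014 in numbers 4 to 6 alone and -0.15 to 0.26. Arm ratio differences leaving out 1 library were -0.023 to 0.25 for miR-154, -0.31 to 0.16 for miR-299, -0.11 to 0.032 for miR-323, -0.37 to 0.080 for miR-369, -0.12 to 0.19 for miR-377, -0.45 to 0.12 for miR-409, -0.033 to 0.20 for miR-411, -0.040 to 0.37 for miR-667. Within number sets, miR-299 was at 0.034, and miR-377 at -0.20, in numbers 4 to 6 alone; miR-323 was at 0.022, miR-409 at 0.60 and miR-411 at -0.077 in numbers 1 to 3 alone. The cause of these turns was not tested. The largest SE among the members was 0.41, for miR-409-5p.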

Other observations

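Mir758, whose mature arms have no row among the miRNAs analysed here, had 12016 reads over the 12 libraries (mean 433.4 CPM) in the table of all RNAs.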
